A study of Mus musculus with 6 samples.

Results

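Long intergenic noncoding RNAs (lincRNAs) were measured by 16251 of the 55681 different probes, controls left out, on an Agilent mouse expression array. These are the probes whose design name begins with A_30_P, and each is named for a genomic region and strand of the mm9 build. A probe was kept when the scanner software had marked it well above background on 3 or more of the 6 arrays. This left 7244 lincRNA probes in 2587 regions (44.6% of the lincRNA probes, against 68.8% of the other probes on the array). Outlier flags removed 28 of them, so that 7216 were tested.

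Each of the 6 arrays held the RNA of 1 biopsy, 3 of healthy skin and 3 of skin tumors, from female FVB/N mice. The tumors were squamous cell carcinomas per the labels. They were induced with the mutagen DMBA and the phorbol ester promoter TPA, also called PMA, which was given for 6 weeks and, after a further dose of DMBA, for 14 weeks. Healthy skin received the solvent acetone and neither agent. The labels do not say how many mice gave the biopsies, so a p-value here covers the spread among biopsies, which may be technical. Biopsies hold many cell types, and fewer cells of a type cannot be told apart from less RNA per cell.

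lincRNAs are transcripts without a long open reading frame, made from regions between protein-coding genes. Most are spliced and polyadenylated like messenger RNAs, many are restricted to few tissues, and their levels are on average low. Some, such as Xist and Neat1, have known nuclear functions in silencing a chromosome or building a nuclear body, but most have none assigned. A transcript mapped as intergenic can also be an extension or an unannotated form of the gene beside it.

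Each probe is 60 bases long and reads 1 strand. The sequences below carry the main findings, written 5′ to 3′ as the array files give them. Capitals mark AATAAA, the polyadenylation hexamer, which 3.99% of the tested lincRNA probes hold (its complement TTTATT stands in 2.83%). The first pair are the largest rises that the rule for named probes took, on chromosome 4 and, at Mirt1, on chromosome 19.
A_30_P01020035: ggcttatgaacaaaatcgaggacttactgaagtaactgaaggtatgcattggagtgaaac
A_30_P01030158: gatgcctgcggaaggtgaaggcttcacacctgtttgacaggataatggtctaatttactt
The next is the largest of those rises detected on all 6 arrays, and the one after it is the largest fall that the rule took.
A_30_P01025304: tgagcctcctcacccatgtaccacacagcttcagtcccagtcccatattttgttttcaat
A_30_P01029156: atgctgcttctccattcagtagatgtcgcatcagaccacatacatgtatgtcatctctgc
The following pair reads the transcript of the muscle micropeptide gene Mrln.
A_30_P01017637: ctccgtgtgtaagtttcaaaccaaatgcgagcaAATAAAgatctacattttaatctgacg
A_30_P01029918: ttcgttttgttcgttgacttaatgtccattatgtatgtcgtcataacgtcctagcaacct
The last pair reads opposite strands of the same 56 positions on chromosome 5, and the members moved in opposite directions.
A_30_P01021303: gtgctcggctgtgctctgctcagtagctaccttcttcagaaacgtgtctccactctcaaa
A_30_P01032919: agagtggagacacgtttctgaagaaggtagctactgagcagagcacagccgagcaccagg

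Detection differed between arrays. The share of lincRNA probes well above background was 38.5% to 46.6% on the healthy skin arrays. It was 46.2% and 48.7% on tumor arrays 2 and 3, and 25.8% on tumor array 1, whose median background signal was 85 against 23 to 26 on the other arrays. Of the 1968 probes detected on exactly 5 arrays, 1749 lacked tumor array 1 alone. At the threshold, 695 probes were detected on exactly 3 arrays (median log2 signal -4.98) and 795 on exactly 2 (median -5.40). Among the kept probes, 125 were detected on no tumor array and 65 on no healthy skin array.

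Levels are given as log2 signal relative to the 75th percentile of the same array, and a fold change as the difference of those values, tumor minus healthy skin. A probe was called at an adjusted p under 0.05 by limma, with Benjamini-Hochberg adjustment over all 34284 tested probes of the array. Of the 7216 lincRNA probes, 1684 were called, which is 23.3%, against 26.0% of all tested probes. Higher in tumors were 381 probes (5.28%, against 10.1% of all tested probes), in 230 regions. Lower were 1303 probes (18.1%, against 16.0%), in 739 regions. The median log2 fold change was -0.46 over the lincRNA probes and -0.18 over all tested probes. The middle 50% of the lincRNA probes lay between -1.04 and 0.097. All 3 tumor arrays lay above all 3 healthy skin arrays in 727 lincRNA probes (10.1%, against 20.3% of all tested probes), and below them in 2696 (37.4%, against 29.6%). Of the higher probes, 56 were detected on no healthy skin array, and of the lower probes 116 on no tumor array. Among the 3647 tested probes detected on all 6 arrays, 234 were higher (6.42%, against 11.2%) and 428 lower (11.7%, against 11.3%).

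The balance of directions depended on the scaling. Higher probes made up 22.6% of the called lincRNA probes as scaled here, 37.5% after quantile normalization, 46.9% after scaling to the median and 77.6% after scaling to the spike-in probes. In the authors' deposited values the share was 39.9%. Under spike-in scaling the lincRNA probes had a median of 0.43 (log2), against 0.71 over all tested probes. Under all 6 choices of values that were compared, 151 probes were called higher and 76 lower each time. Leaving out tumor array 2 gave 221 higher and 677 lower calls, and leaving out tumor array 1 gave 264 and 823.

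The largest rise among the probes the rule took was at A_30_P01020035 (chr4:88745893-88745952, reverse strand), which lies 80.3 kb from the probe of Mtap, the methionine salvage enzyme. Its log2 signal was -7.24, -7.48 and -6.52 in healthy skin and 1.12, 1.37 and 0.68 in tumors. No healthy skin array detected it, so the difference is at least 61.1-fold (fitted log2 fold change 8.14 ± 0.36 SE, limma adjusted p = 0.000112). With normexp background correction, which here adds an offset of 50 to each signal, the log2 fold change was 4.14. In the authors' deposited values it was 5.26.

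A_30_P01030158 (chr19:53534703-53534762, reverse strand) lies 8.55 kb from a probe of the noncoding RNA gene Mirt1. Its log2 signal was -6.25, -7.38 and -6.46 in healthy skin and -0.88, -1.35 and 0.45 in tumors, at least 19.4-fold higher in tumors (limma adjusted p = 0.000731). A_30_P01027732 (chr1:115852576-115852635, reverse strand) has no tested, named gene probe within 2 Mb, the nearest being that of Dsel. It stood at -4.95, -4.60 and -3.95 in healthy skin and at 1.61, 0.98 and 1.76 in tumors, a log2 fold change of 5.95 ± 0.37 (limma adjusted p = 0.00031). In both probes every tumor lay above every healthy skin sample, as the rule for named probes required.

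A_30_P01025304 (chr6:31288308-31288367, forward strand), 154 kb from the probe of Mkln1, was detected on all 6 arrays. It measured -0.26, -0.01 and 0.27 in healthy skin and 4.93, 4.76 and 5.39 in tumors. Its log2 fold change was 5.03 ± 0.31 (limma adjusted p = 0.000274), and the value was 4.94 both with normexp background correction and in the authors' deposited values. The Mkln1 probe itself gave 1.16, with an adjusted p of 0.0517.

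Other large rises stood near signalling genes. A_30_P01023276 (chr13:15994284-15994343, forward strand) is 124 kb from the probe of Inhba, which encodes an activin subunit. It measured -7.27, -5.42 and -6.58 against -2.06, -2.07 and -0.07, at least 11.1-fold higher in tumors, and the Inhba probe rose by 3.77. A_30_P01033624 (chr16:29907844-29907903, reverse strand) is 160 kb from the probe of Hes1, a Notch target. It was at least 9.99-fold higher in tumors, and the Hes1 probe was not called (log2 fold change 0.58, limma adjusted p = 0.233).

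Of the 12 largest rises chosen by the rule, 8 were detected on no healthy skin array. A_30_P01023334 (chr16:7947986-7948045) has no tested, named gene probe nearer than that of Tmem114 at 462 kb. It measured -7.07, -7.21 and -6.40 in healthy skin and -0.72, -1.02 and -3.06 in tumors, at least 9.72-fold higher. Tumor 3 was the lowest tumor in this probe. A_30_P01023433 (chr13:98267524-98267583) measured -7.13, -7.26 and -6.41 against -3.01, 0.33 and -2.80, at least 8.28-fold higher, with tumor 2 well above the other tumors. A_30_P01025975 and A_30_P01030237 lie between Ifna1 and Mtap on chromosome 4, the first with a log2 fold change of 5.10 and the second at least 10.6-fold higher in tumors. A_30_P01023433 was not called with normexp background correction.

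Among the probes the rule took, the largest fall was at A_30_P01029156 (chr3:148885328-148885387, reverse strand), 407 kb from the probe of the adhesion receptor gene Adgrl2. It measured 1.60, 2.18 and 1.92 in healthy skin and -3.70, -3.62 and -4.29 in tumors, a log2 fold change of -5.77 ± 0.32 (limma adjusted p = 0.000224). The Adgrl2 probe fell by 2.05. A_30_P01031718 (chr3:85887469-85887528, reverse strand) lies 1.38 kb from a probe of Sh3d19 on the other strand. It measured 3.08, 3.81 and 2.20 against -2.50, -2.12 and -1.63, a log2 fold change of -5.11 ± 0.46 (limma adjusted p = 0.000782), and that Sh3d19 probe was not called (-0.70, adjusted p = 0.318). A_30_P01020163 (chrX:157038772-157038831, forward strand), 9.76 kb from the probe of Phka2, measured 1.86, 2.20 and 1.73 against -2.89, -2.75 and -3.07. All 6 arrays detected A_30_P01031718 and A_30_P01020163. Healthy skin and tumors did not overlap in either, as the rule for named probes required.

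Several large falls lay in or beside genes of muscle. Mrln encodes myoregulin, a micropeptide that inhibits the calcium pump of the sarcoplasmic reticulum. Its transcript was first annotated as noncoding. A_30_P01017637 (chr10:69682402-69682461, forward strand) measured -0.19, 1.09 and -0.11 in healthy skin and -5.60, -4.60 and -4.76 in tumors, and A_30_P01029918 (chr10:69682331-69682390) fell by 5.04. The Mrln gene probe, whose positions overlap the second of these, fell by 5.20. A_30_P01024600 (chr8:126397164-126397223, reverse strand), 19033 bp from the probe of skeletal actin Acta1, measured -1.82, -1.25 and -2.56 against -5.65, -6.53 and -7.29. No tumor array detected it, and it was at least 11.6-fold lower in tumors (limma adjusted p = 0.00149). In the same region A_30_P01024928 on the reverse strand was at least 7.90-fold lower, and A_30_P01032815 on the forward strand fell by 1.17 (limma adjusted p = 0.0344), a call that 15 of 18 alternatives lost. The skeletal muscle marker list moved with these probes: all 8 of its genes were lower, and their summed linear level was 890 to 1308 in healthy skin and 23.9 to 54.5 in tumors. Its part in the result was not tested.

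The other large falls were beside transcription factor genes and in a noncoding gene. A_30_P01030881 is 171 kb from the probe of Klf9, a glucocorticoid-induced factor, and was at least 9.71-fold lower in tumors, while the Klf9 probe fell by 2.08. A_30_P01017577 is 137 kb from the probe of Pou3f1, an epidermal POU factor, and fell by 4.72, while the Pou3f1 probe fell by 3.78. A_30_P01027988 shares nearly all its positions with the probe of the noncoding gene Gm5091 and was at least 8.70-fold lower, and the Gm5091 probe, which no tumor array detected either, was at least 10.4-fold lower. A_30_P01021633 near Zfp64 and A_30_P01028216 near Pnrc1 had log2 fold changes of -4.64 and -4.48. Neither Zfp64 nor Pnrc1 was called lower: 1 Zfp64 probe rose by 2.24 and another was not called (0.99, limma adjusted p = 0.0737), and Pnrc1 (0.43) was not called.

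Called probes within 200 kb of each other were joined into 618 loci, of which 16 held 10 or more called probes. This grouping was made after the values were seen and carries no test. Of the 16, 14 were mostly lower in tumors and 2 mostly higher, and not all are described here. The first of the higher loci, on chromosome 4 (chr4:88551797-88746012), lies between the probes of Ifna1, an interferon gene, and Mtap. In the RefSeq order of GRCm38.p6 the genes between them are Gm34457, Ifne, Gm49890, Mir31, Gm34568, Wincr1 and Gm12602. Of its 24 tested probes 15 were higher, 13 of the 15 tested on the reverse strand and 2 of the 9 on the forward strand, and 1 was lower. The 3 probes at its far end, A_30_P01024210, A_30_P01020035 and A_30_P01032679, adjoin each other and were detected on no healthy skin array. They were at least 57.4-fold, 61.1-fold and 41.8-fold higher in tumors. Within it A_30_P01019307 (chr4:88583426-88583485, reverse strand), detected on all 6 arrays, measured -1.07, -1.41 and -2.15 in healthy skin and 3.17, 3.44 and 3.15 in tumors, a log2 fold change of 4.80 ± 0.35 (limma adjusted p = 0.000447). The gene probes at both ends rose too, Ifna1 by 1.70 and Mtap by 2.95.

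The second higher locus is at Mirt1 (chr19:53518831-53537354). Of 16 tested probes 11 rose, 9 of the 10 on the reverse strand, which is the strand of Mirt1, and 2 of the 6 on the forward strand, where 1 fell. Both Mirt1 gene probes rose, by 4.98 and 4.91. On the forward strand A_30_P01032087 was at least 7.17-fold higher, and A_30_P01029007 was not called (log2 fold change 0.36, limma adjusted p = 0.413).

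Loci lower in tumors included 2 on chromosome 16 beside transcriptional repressor genes. Beside Zbtb20 (chr16:43623890-43642004), 18 of 19 probes fell, with log2 fold changes from -3.44 to -1.33, and the Zbtb20 probe fell by 2.70. At A_30_P01021665 the values were 2.99, 3.20 and 3.81 in healthy skin and -0.03, 0.59 and 1.07 in tumors. Beside Bcl6 (chr16:23992840-23995345), 11 of 12 probes fell, 6 on the forward and 5 on the reverse strand, by 2.44 to 3.81. The Bcl6 probe fell by 1.94. Most of these calls depended on the scaling. Under spike-in scaling only A_30_P01022305 and A_30_P01018802 beside Zbtb20, and A_30_P01033600 and A_30_P01024256 beside Bcl6, were still called. Beside Mecom, a zinc finger transcription factor gene, 13 of 15 probes fell, while its 2 gene probes were not called (log2 fold changes 0.67 and -1.22).

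The widest of these loci held fewer called probes among those tested. On chromosome 11 (chr11:95359193-95657615), around Spop, Phb and Zfp652, 16 of 34 tested probes fell and 1 rose. None of the 3 Spop probes was called, and of the 2 Phb probes 1 rose by 1.19. Of the 2 Zfp652 probes 1 fell by 1.88 (limma adjusted p = 0.00957) and the other was not called (-0.06). Around Gse1 on chromosome 8, 13 of 32 probes fell, 12 of them on the forward strand, which holds 22 of the 32. On chromosome 1 (chr1:84959005-85310219) 10 of 27 fell, all on the reverse strand, which holds 19 of the 27. At 2 further loci, on chromosome 16 (chr16:90008197-90116780) and chromosome 5 (chr5:149755110-149801633), all 13 falls of each lay on the reverse strand, and the first also held 2 rises. Most tested probes of these 2 loci are on that strand, 21 of 26 and 16 of 18.

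Beyond the skeletal muscle list, the called lincRNA probes within 50 kb of a marker gene were near Cdh5, the endothelial cadherin gene. The tested probes within that distance were not counted, so no share called is given. Near Cdh5, A_30_P01019260 fell by 2.21 and A_30_P01022949 by 1.56, on opposite strands. Another called probe of that region, A_30_P01024986, had the largest fall, 2.84 (limma adjusted p = 0.00137), while the Cdh5 probe was not called (0.12, limma adjusted p = 0.845). Healthy skin and tumors did not overlap in the first pair, as in all 1303 lower calls. The call of A_30_P01019260 was lost in 12 of 19 alternatives.

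The regions with most kept probes had 17 each. At the region of Dancr, a noncoding gene known from studies of epidermal progenitors, none of the 17 was called (log2 fold changes -1.74 to 0.90). At the region nearest Tbcc 6 of 17 fell, with log2 fold changes from -1.70 to -1.02. The call of A_30_P01019379 was lost in 5 of 18 alternatives. The other 5 calls were lost in most: A_30_P01028885, A_30_P01028285 and A_30_P01024052 in 15 of 18 each, A_30_P01024212 in 13 of 19 and A_30_P01029719 in 12 of 19.

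Probes of one region agreed when they read the same strand and much less when they read opposite strands. Over 1860 pairs from one region and strand, Pearson's r of the log2 fold changes was 0.63. Over 668 regions measured on both strands, r between the strands was 0.098. Of 381 region strands with 2 or more called probes, 357 had all of them in 1 direction. Of 76 regions called on both strands, 53 moved the same way on both and 23 in opposite ways. These r values are descriptions across probes that share arrays and targets.

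The probes A_30_P01021303 and A_30_P01032919 on chromosome 5, shown above, give the clearest such case. The forward probe measured -2.34, -1.71 and -2.42 in healthy skin and 2.20, 1.16 and 0.69 in tumors, a rise of 3.51 ± 0.44 (limma adjusted p = 0.00234). The reverse probe measured -2.78, -2.59 and -2.48 against -5.14, -4.64 and -5.12, and fell by 2.35 (limma adjusted p = 0.00201). Both groups were separate on each strand, as in 380 of the 381 higher calls and all 1303 lower calls. The other pairs with the widest gaps, at Mirt1, near Inhba and at chr1:115829055-115854155, each paired a called rise with a probe on the other strand that was not called.

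Agreement with the nearest gene probe also differed by strand at short distances. Within 10 kb, r was 0.60 over 1484 pairs on the same strand and 0.11 over 762 pairs on opposite strands. In 86 of the same-strand pairs the midpoints of the probes lay closer than 1 probe length, so that both read partly the same bases, and without them r was 0.56. Where both were called, 190 of 204 same-strand pairs and 36 of 40 opposite-strand pairs moved the same way. At 10 to 50 kb, r was 0.31 on the same strand and 0.14 on opposite strands. At 50 to 200 kb the order was the other way, with r of 0.27 on the same strand and 0.30 on opposite strands, where 49 of 62 and 50 of 60 pairs with both called moved the same way. Over 200 kb r was 0.16 and 0.057. For 306 lincRNA probes whose region holds a probe of a protein-coding gene on the same strand, r was 0.83, some overlapping pairs included, and all 58 pairs with both called moved the same way.

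The array names 12 lincRNAs by symbol, on 57 probes, of which 31 probes of 9 names were tested. No probe among the 31 was called by limma, against 23.3% of all tested lincRNA probes. An unadjusted limma p under 0.05 was found in 7 of them, against 2778 of the 7216. Probes of 1 RNA are not independent. NEAT1, the RNA scaffold of paraspeckles, had a mean log2 signal over its 5 probes of 7.01, 6.88 and 6.50 in healthy skin and 7.17, 6.86 and 6.33 in tumors, and the groups overlapped. NEAT2, better known as Malat1, a nuclear speckle RNA, averaged 1.10, 1.87 and 2.31 against 3.45, 2.75 and 2.55 over 3 probes. Each tumor was higher, by 1.16 on average, with limma adjusted p from 0.0666 to 0.0799. XIST, the RNA that silences an X chromosome in females, averaged 3.68, 3.40 and 4.13 against 2.81, 3.46 and 2.79. H19, an imprinted growth-linked RNA, averaged 2.23, 1.39 and -0.84 against 0.78, -1.17 and -0.94, with overlapping groups. TUG1 and KCNQ1ot1 had mean log2 fold changes of 0.55 and -0.33.

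Other long noncoding RNA genes are measured by gene probes rather than lincRNA probes. Of a list of 50, 27 were measured, 1 rose and 6 fell, which is 25.9% called, against 26.0% of all tested probes. The median log2 fold change was -0.20. The riser was Snhg3, a snoRNA host gene, by 1.18 (limma adjusted p = 0.0385). Snhg11 fell furthest, from -3.40, -3.23 and -2.35 to values that no tumor array detected. The H19 probe A_55_P1961127, which stands for the gene in this count, measured 5.09, 4.54 and 4.21 in healthy skin and 3.71, 1.88 and 2.06 in tumors, a fall of 2.06 (limma adjusted p = 0.0275). A second H19 gene probe, A_55_P1961125, was not called (log2 fold change -0.68, limma adjusted p = 0.151). The remaining falls were Dleu2 (-2.07), Peg13 (-1.45), Firre (-1.73) and Ftx (-1.04).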

How the data were processed

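Total RNA was labelled with Cy3 and hybridised to 1-colour Agilent arrays, 3 of healthy skin and 3 of tumors, all on 1 slide. As read from the array names, healthy skin arrays 1 and 2 lay in slide row 1. Healthy skin array 3 and all 3 tumor arrays lay in row 2. Group and slide row therefore cannot be fully told apart. The deposited intensity values are background-subtracted spot signals from Agilent Feature Extraction 10.7.3.1, per the file headers. The deposited series table holds log2 values of the same arrays; the submitters' processing notes name limma, and how it was centred and corrected for background is unknown here.

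Spots of a probe were averaged, outlier-flagged spots left out, and log2 signals set relative to the 75th percentile of each array (242 to 897 in linear signal). The comparison used R 4.3.3 and limma 3.58.1 (two-sided; lmFit, then eBayes; no block). A probe that no array of a group detected has only a bound there, written "at least": the bright group's mean is set against the dim arrays' mean, each dim value raised to at least the array's lowest detected signal. The array's own annotation (mm9) gave the positions, and 61 tested probes have none. Gene names come from RefSeq (GRCm38.p6), used for names, kinds and order only. Of the other tested probes, 20251 were named by accession, 1404 by symbol, 257 by synonym and 5156 not at all. The nearest gene probe was sought only among tested probes with such a name and a position.

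The rule for named probes took called probes with separate groups and detection on all 3 arrays of the higher group, at most 1 per region: the 12 largest rises and falls, the regions with most probes, probes near marker genes, and the widest strand gaps. Other probes of described loci were chosen after their values were seen, and some probes are not reported here. The members and lists were chosen with earlier results of these data known. Alternatives were other scalings, background corrections and filters, the deposited values, a variance trend, array weights, blocks, treat, region means and leaving out arrays. The scripts were tested on simulated data of 34284 probes, with 50 changes of each size. Recovered were 1 of 50 at a log2 change of 1, 13 at 2, 30 at 3 and 40 at 4, with 3 false calls. Fewer probes changed there than were called here, so these shares need not hold for the real data. A probe that was not called is not thereby shown to be unchanged. The number of arrays limits the precision.

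Marker lists were counted in the same fit. Skeletal muscle genes were lower in 8 of 8, Schwann cell genes in 4 of 4, adipocyte genes in 5 of 6 measured, sebaceous genes in 3 of 4, basal and suprabasal keratinocyte genes in 3 of 8, T cell genes in 2 of 5 and hair follicle genes in 2 of 6. Neutrophil and activated keratinocyte genes were each higher in 5 of 6, macrophage genes in 1 of 6, fibroblast genes were 1 higher and 1 lower of 5, and no endothelial (3) or melanocyte (4) gene was called.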

Additional observations from a re-analysis of the deposited data

How the results depend on the processing

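No called lincRNA probe was called in the opposite direction under any alternative fitted per probe (region means were not compared in this way), but the counts moved. Lower calls, 1303 as reported, were 746 after quantile normalization, 721 after median scaling, 83 after spike-in scaling, 730 in the authors' deposited values, 557 without a detection filter, 483 among probes detected on all 6 arrays, 2036 with array weights, 194 with treat and 536 over region means. Higher calls, 381 as reported, were 638 after median scaling, 243 with normexp, 203 without a filter, 619 with array weights, 105 with treat and 150 over region means. Tested were 7216 lincRNA probes as reported, 16187 without a filter, 3647 on all 6 arrays and 3249 region means. Of these 23.3%, 4.70%, 20.3% and 21.1% were called in either direction, and of the other probes 26.7%, 9.59%, 25.6% and 27.1%. Spike-in scaling called 5.13% (10.4% of the other probes), array weights 36.8% (40.1%) and treat 4.14% (6.74%). The lincRNA median log2 fold change was -0.21 with quantile normalization, -0.094 with median scaling, -0.11 in the deposited values and -0.27 without a filter. It was -0.29 on all 6 arrays and -0.65 when slide row was a block, and it turned to 0.43 with spike-in scaling. With the slide row block the contrast rests on healthy skin array 3, the only healthy skin array in the row of the tumors. Leaving out 1 array gave 221 to 345 higher and 677 to 1145 lower calls, and leaving out healthy skin array 3 and tumor array 1 together, chosen after seeing the data, gave 348 and 1095. Within 10 kb of a gene probe, on all 6 arrays, r was 0.49 on the same strand and -0.012 on opposite strands, where its sign turned. Apart from these constructions, which test fewer probes or arrays in some cases, the cause was not tested. Of the 24 largest rises and falls that the rule took, 22 were called in every alternative run. The replicate numbers did not pair the samples (correlations of same-numbered samples 0.091, 0.129 and -0.066), and with the replicate block 343 probes were higher and 991 lower. Of the 31 lincRNA probes with a symbol, 9 were called with array weights and 4 with median scaling. The shares of all tested lincRNA probes were 36.8% and 18.8%. With normexp the 12 largest rises that the rule took ranged from 1.44 to 4.94. The offset of 50 added there makes the folds of dim probes smaller, and its part in this range was not tested.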

Other observations

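The called lincRNA probes were spread unevenly over the chromosomes. The share called lower was 31.0% on chromosome 16, against 18.1% over all lincRNA probes, and 9.66% on chromosome 13. The share called higher was 12.8% on chromosome 19 and 9.64% on chromosome 9, against 5.28% over all. Probes of one locus are not independent, and the loci at Zbtb20, Bcl6 and Mirt1 hold 18, 11 and 12 of the called probes on chromosomes 16, 16 and 19. These differences were not tested.

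Some lincRNA probes match the RefSeq window around a gene's start, which is 300 bases long, over all 60 bases. Of 170 such probes 84 were tested and 9 called (10.71%, against 23.3% of all tested lincRNA probes and 26.0% of all tested probes). A_30_P01030585, A_30_P01025037 and A_30_P01030731 match the window of Pappa2, a protease of insulin-like growth factor binding proteins, in its sense direction. They were detected on all healthy skin arrays and on no tumor array, at least 7.93-fold, 3.65-fold and 2.89-fold lower in tumors. A_30_P01017948 matches the windows of Wdr89 (antisense) and Gm34717 (sense) and rose by 2.80.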
